A study of Mus musculus with 40 samples.

Results

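The genes examined were 10 macrophage identity genes, Csf1, Csf1r, Fcgr1, Fcgr3, Tyrobp, Itgam, Mertk, Cd14, Cd68 and Lyz2. They were chosen by name, as every probe whose symbol in the deposited table of fold changes was one of the 10, which gave 15 of 40628 probes and 10 of 29411 gene symbols. Gene expression was measured on 1-colour arrays of RNA from subcutaneous stromal vascular cells of C57BL/6J mice, material that the series title calls infiltrating macrophages. The mice were 3 to 4 weeks old at weaning, when the diets began, and the question was how these cells differed between diets and over time on each diet. LFC was a low-fat control diet with 10% of its calories from fat. HFC was a high-fat diet with added sucrose and 60% of its calories from fat. HF5, HF20 and HF75 were HFC with 5 µg, 20 µg and 75 µg of the ethno-botanical formulation Kal-1. All mice were of this strain, and no other genotype was given. Of 40 arrays, 38 had labels that did not conflict, with 11 on LFC, 11 on HFC, 6 on HF5, 5 on HF20 and 5 on HF75. LFC and HFC arrays were from days 1, 6, 10 and 14 and from weeks 0, 3, 6, 9, 12, 15 and 18. Week 0 was also day 14, so weeks 3 to 18 fell on days 35 to 140. HF5 began at week 3, and HF20 and HF75 covered weeks 3 to 15. Each diet had 1 array per labelled time point, so that LFC and HFC had 2 arrays of the same day at day 14 and week 0, and the labels did not say how many mice an array held. Titles of the week 9 arrays carried the letters WS on LFC, HFC, HF5 and HF20 but not on HF75, and those of day 6 began with another code than the rest. The titles of the LFC and HF20 arrays of week 12 gave no time, which was taken from the time label. None of this was explained.

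Macrophages depend on colony-stimulating factor 1, encoded by Csf1, which binds the receptor tyrosine kinase encoded by Csf1r and keeps them alive and differentiated. They take up antibody-coated particles through Fc receptors, which signal through adaptors with tyrosine activation motifs, adhere through leukocyte integrins, clear dying cells through the kinase encoded by Mertk and sense lipopolysaccharide with the co-receptor encoded by Cd14. Fat tissue holds resident macrophages and gains more of them in obesity, many of them around dying adipocytes. In RNA from a mixed cell preparation, fewer macrophages and less RNA of a gene per macrophage cannot be told apart.

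Levels are log2 intensities relative to the 75th percentile of the same array, so 0 is the brightness that 75% of an array's probes do not reach. A gene counted as measured on an array where its probe was well above background, and differences are log2 differences. Over the 38 arrays the 75th percentile had a median intensity of 755 (lowest 7.86, highest 2040), a median of 69.6% of spots were well above background (17.2% to 87.2%), and the median ratio of signal to background was 4.86 (1.53 to 55.4). These figures set the precision, with the number of arrays. At weeks 3, 6, 9, 12 and 15 the ratio on HF75 was 3.86, 4.05, 3.86, 3.50 and 3.79. On HFC it was 4.59, 5.42, 7.23, 4.12 and 6.49 at the same weeks. The 75th percentile was also lower on HF75 than on HFC at each of these weeks. The part of this dimmer signal in the HF75 differences was not tested. The LFC array of week 3 held the lowest 75th percentile and the lowest share of spots above background, and 0 of the 10 genes were measured on it, so its values stand at its floor of −0.06. The LFC array of day 14 had 9104 outlier spots of 43803, the ratio of 55.4 and no value for Lyz2. The rank correlation of the day 14 array with the others had a median of 0.585, and that of the week 3 array was lower still. The LFC array of week 18 had a median rank correlation of 0.689 and differed in cell type markers. Its mean level was 4.98 over 10 neutrophil genes and 5.59 over 6 erythroid genes, the highest of the 10 LFC arrays other than week 3, and −4.85 over 10 fibroblast genes, −4.67 over 8 endothelial genes and −3.16 over 12 adipocyte genes, the lowest of them. For differences between HFC and LFC, the median of the 10 genes and the medians of the lists are given with and without the pairs of these arrays, and lowest, median and highest levels are over the arrays on which a gene was measured. At week 9 the mean over 12 adipocyte genes lay between 4.83 and 5.15 on the arrays with WS in their titles and at 2.73 on HF75, while the mean over 9 T cell genes was 1.30 on HF75 and −3.69 on HFC. Whether the HF75 and HFC arrays of week 9 held the same kind of material is not known, so the median of the 10 genes and those of several lists on HF75 are also given without that week. At week 12 the LFC and HF20 arrays had adipocyte means of 5.02 and 5.59 and means of −0.28 and −0.72 over 13 genes that respond to tissue digestion, the lowest digestion means of their diets, beside 2.42 and 5.00 on HFC. The medians of the pathway lists for HF20 minus HFC are given with that week kept.

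Most markers of the labelled cell type were well above background, as were markers of other cells. Among the 10 LFC arrays other than week 3, between 9 and 10 of the 10 genes were measured on each array, and between 17 and 20 of 20 other macrophage markers were. HFC had 8 to 10 of the 10 genes measured, and HF5, HF20 and HF75 had all 10 on each array. The probe used for Itgam was not well above background on the LFC and HFC arrays of day 6, nor was that of Lyz2 on the HFC array of day 6. The arrays also held other cells. Median mean levels over 12 adipocyte genes were 2.23 on LFC, 2.27 on HFC, 1.40 on HF5, 5.08 on HF20 and 1.92 on HF75, with all 12 well above background on each HFC and Kal-1 array, and Cfd or Acsl1 most often the brightest. All 10 fibroblast genes, with Dcn the brightest, were well above background on each HF5, HF20 and HF75 array. Their median mean levels were 3.61, 4.20, 3.89, 3.59 and 3.53 on LFC, HFC, HF5, HF20 and HF75. For the 10 macrophage identity genes these medians were 0.63, 0.76, 0.71, 0.38 and 0.29, below both other lists on each diet.

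Over the arrays on which they were measured, the 10 genes had a median standard deviation of 0.93, beside 0.81 over 15596 genes well above background on at least 90% of arrays (quartiles 0.63 and 1.08). Itgam spanned the widest range, with a highest level 130-fold above its lowest, followed by Lyz2 at 60.7-fold, Cd68 at 40.3-fold and Cd14 at 39.2-fold. Csf1r had the narrowest range of the 10, at 16.6-fold, then Fcgr3 at 17.4-fold, Mertk at 20.3-fold, Csf1 at 22.2-fold, Fcgr1 at 24.0-fold and Tyrobp at 24.3-fold. When the 5 diets were ordered by median level for each gene, 0 of the neighbouring diets in any order lay apart by more than the larger of their standard deviations. HF75 had the lowest median for 6 of the genes (Cd68, Csf1r, Mertk, Fcgr1, Fcgr3 and Lyz2) and HF20 for 3 (Itgam, Tyrobp and Cd14), while HF5 had the highest for 5 (Itgam, Mertk, Fcgr3, Cd14 and Csf1). These medians are over unlike time points, since LFC and HFC had arrays from before week 3 and the Kal-1 diets had none.

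**Figure D1:**
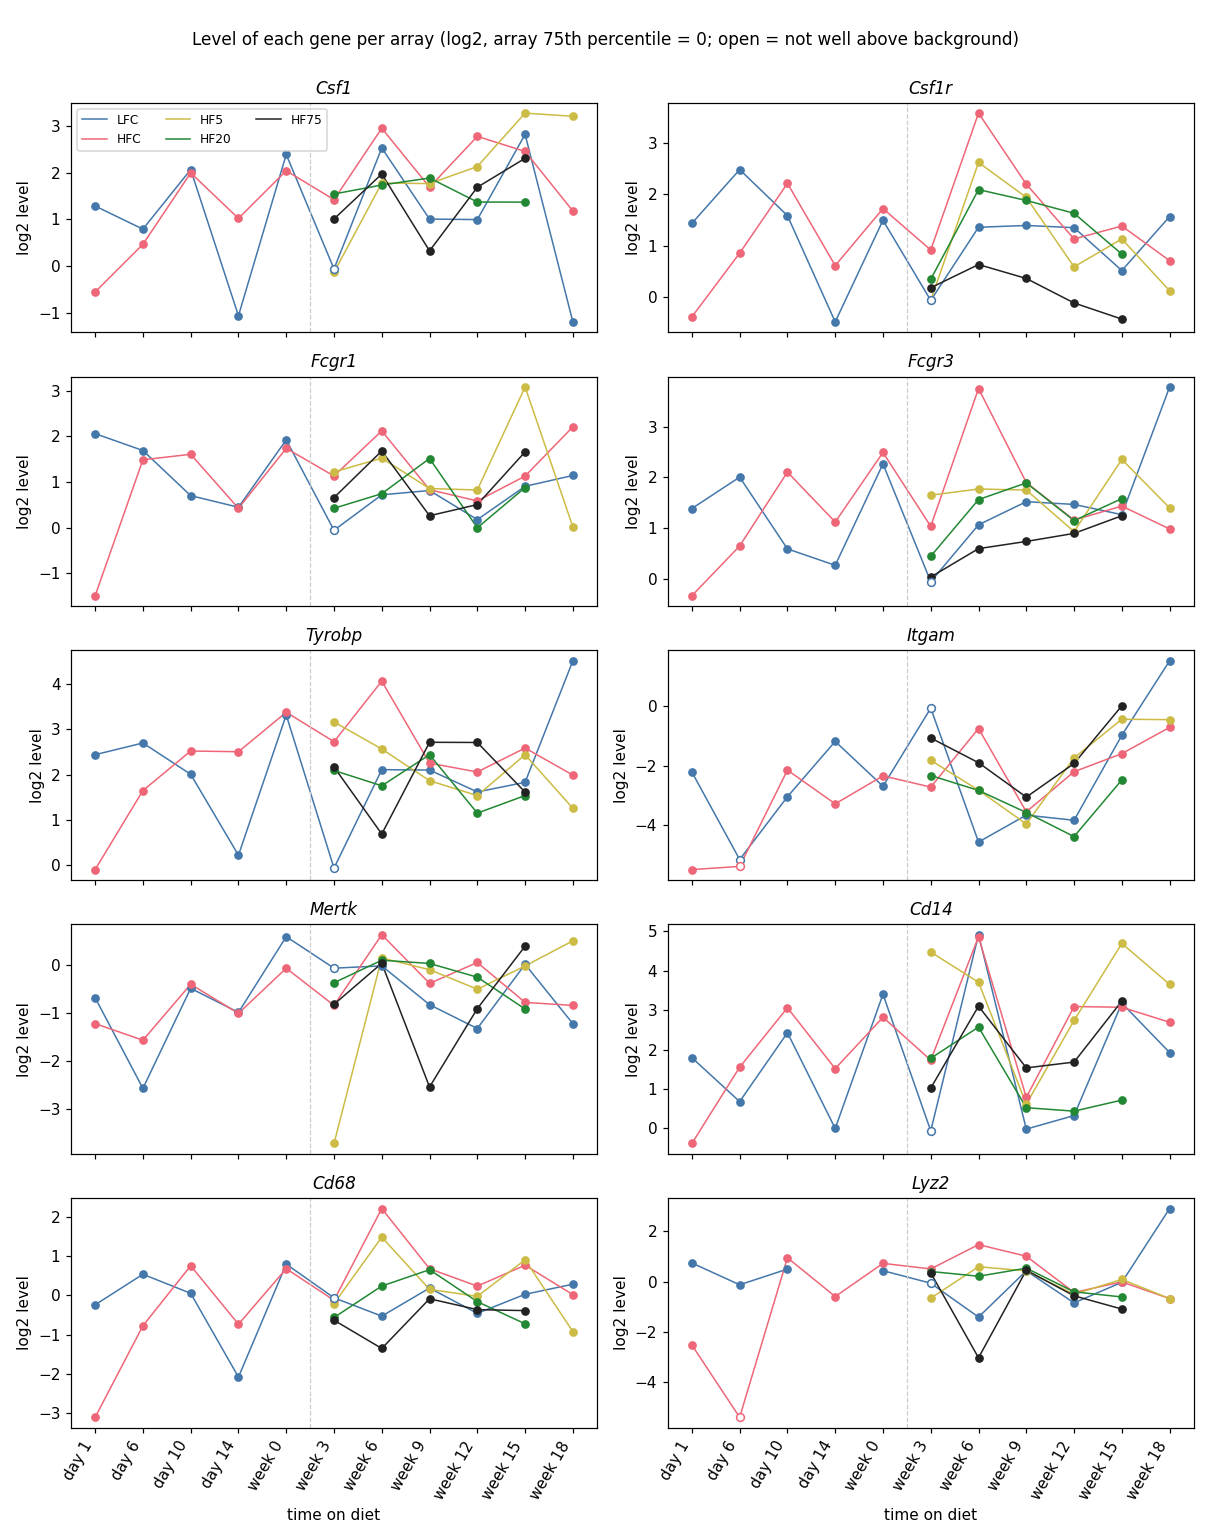
Level of each gene on each array (y axis, log2 intensity relative to the array's 75th percentile) by time on diet (x axis), 1 line per diet, with open points where the probe was not well above background. Csf1r on HF75 (black) lies below HFC (red) at weeks 3 to 15, and the HFC array of week 6 holds the highest HFC level of the 8 genes other than Fcgr1 and Itgam.

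HFC was compared with LFC over 11 time points by limma with the time point as a block. No gene of 20830 tested passed an adjusted p of 0.05, so 0% were called and 0 of the 10 genes were among them, with 639 of all genes and 0 of the 10 at an unadjusted p under 0.05. Each Kal-1 dose was compared with the HFC arrays of its own time points, and the 3 comparisons share those HFC arrays. HF5 against HFC had 0 calls of 20849 genes (0%) and 1085 at an unadjusted p under 0.05, of which 1 was among the 10. HF20 against HFC had 0 calls of 22083 (0%) and 2754 at an unadjusted p under 0.05, 3 of them among the 10. HF75 against HFC called 203 genes of 20662, or 0.982%, with 171 higher and 32 lower on HF75, and 2952 at an unadjusted p under 0.05. None of the 10 genes was called there, and 4 had an unadjusted p under 0.05. The 203 became 0 without the pair of week 3, week 6 or week 15, 99 without week 9, 67 without week 12 and 0 without the time point block, and normexp background correction split 199 calls into 193 higher and 6 lower.

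Csf1 encodes the growth factor that macrophages need. Its level on LFC had a median of 1.15, from −1.19 at week 18 to 2.82 at week 15, and on HFC a median of 1.69, from −0.55 at day 1 to 2.95 at week 6. On HF5 it ranged from −0.13 at week 3 to 3.28 at week 15 around a median of 1.96. At weeks 3, 6, 9, 12 and 15 Csf1 stood at 1.54, 1.74, 1.89, 1.37 and 1.37 on HF20 and at 1.01, 1.97, 0.33, 1.69 and 2.31 on HF75, beside 1.42, 2.95, 1.69, 2.78 and 2.45 on HFC. HF75 lay below HFC at each of the 5 time points, though the ranges overlapped. By median over all measured arrays the diets ran in the order LFC, HF20, HF75, HFC and HF5. Of these, LFC and HFC alone had arrays from before week 3, so the order is over unlike time points. HFC exceeded LFC by 0.53 (SE 0.39, adjusted p = 0.942), with 5 of 10 measured pairs above 0 and 5 below. Without the pairs of day 14, week 3 and week 18, an alternative chosen after seeing the data, this was −0.01. A second, dimmer Csf1 probe gave a mean HFC minus LFC of −0.56 with 6 of 10 pairs above 0, beside a mean of 0.44 from the first. HF75 minus HFC was −0.80 (SE 0.27, 95% interval −1.44 to −0.16, adjusted p = 0.256), lower in 5 of 5 pairs. The second Csf1 probe gave a mean of −1.73 for the same pairs, also lower in 5 of 5. Without week 9 the HF75 difference from the first probe was −0.66. The smaller doses gave −0.68 for HF20 minus HFC (adjusted p = 0.391) and −0.08 for HF5 minus HFC (adjusted p = 0.993), the latter −0.50 without week 18 and 0.22 without week 3.

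Csf1r, the receptor for that factor, gave the largest difference of the 10 genes in any of the diet comparisons. On LFC its level had a median of 1.41, from −0.48 at day 14 to 2.48 at day 6. On HFC the median was 1.13, from −0.38 at day 1 to 3.57 at week 6, and on HF5 it was 0.86, from −0.06 at week 3 to 2.62 at week 6. The ranges of these 3 diets overlapped, with the HFC extremes at day 1 and week 6. At weeks 3, 6, 9, 12 and 15 Csf1r stood at 0.92, 3.57, 2.19, 1.13 and 1.38 on HFC and at 0.19, 0.64, 0.36, −0.11 and −0.42 on HF75. HF20 held 0.35, 2.09, 1.88, 1.63 and 0.84 at the same weeks. Each HF75 value lay below each HFC value of these weeks, whereas HF20 overlapped both. The share of all genes without overlap between HF75 and HFC is not given, and 14.3% had an unadjusted p under 0.05 in limma. HF75 minus HFC was −1.71 (SE 0.35, 95% interval −2.54 to −0.88, 3.27-fold, adjusted p = 0.0958, lower in 5 of 5 pairs), short of the threshold, in a comparison where 0.982% of genes were called.

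The Csf1r difference was −1.40 without the HFC peak of week 6, and leaving out each week in turn gave −1.95 to −1.40 with adjusted p from 0.177 to 0.250. With no filter on dim probes, where 6548 of 29411 genes were called, Csf1r passed at an adjusted p of 0.0315, and over the 11 alternatives run its adjusted p ran from 0.0315 to 0.878. Another Csf1r probe gave a mean of −2.03, lower in 5 of 5 pairs, with r = 0.91 to the first over arrays. The third, dim probe gave −0.07 over 4 measured pairs, 2 above 0 and 2 below, with r = 0.23. HF75 and HFC were scanned on the same day at weeks 12 and 15, and those 2 pairs alone gave −1.52, while scan day and dose differed together at weeks 3, 6 and 9. HF5 minus HFC was −0.59 (SE 0.18, 95% interval −1.02 to −0.17, adjusted p = 0.870), lower in 6 of 6 pairs. For HF20 the difference was −0.48 (SE 0.31, adjusted p = 0.456), lower in 4 of 5, with −0.23 without week 6 and −0.73 without week 12. HFC minus LFC was 0.21 (SE 0.38, adjusted p = 0.960), above 0 in 6 of 10 measured pairs, with 0.01 without week 6 and 0.41 without day 1.

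The wider growth factor axis held 16 genes with Csf1 and Csf1r, among them other colony-stimulating factor receptors and the transcription factors of myeloid cells. None of the 16 passed in any diet comparison. For HFC minus LFC, 9 were above 0 with a median of 0.16, beside −0.03 over all genes tested, and 8 with a median of 0.05 without day 14, week 3 and week 18. For HF5, HF20 and HF75 against HFC the medians were −0.09, −0.47 and −0.22, with 11, 12 and 12 of 16 below 0, beside all-gene medians of −0.00, 0.08 and 0.01. On HF75 it was −0.50 without week 9. Csf1r had the lowest p of the list for HF5 and HF75, and Csf3r, the receptor for the neutrophil growth factor, for HF20 (−1.67, SE 0.56, adjusted p = 0.384).

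Fcgr1 encodes the high-affinity Fc receptor for IgG. Its level had a median of 0.86 on LFC, from 0.17 at week 12 to 2.06 at day 1, of 1.13 on HFC, from −1.50 at day 1 to 2.21 at week 18, and of 1.04 on HF5, from 0.01 at week 18 to 3.09 at week 15. The day 1 arrays were the extremes of both control diets in opposite directions. On HF20 it stood at 0.42, 0.74, 1.51, −0.01 and 0.88 over weeks 3 to 15, and on HF75 at 0.66, 1.68, 0.26, 0.50 and 1.66. Both doses lay within the range of HFC over all time points, but weeks 3, 6, 9, 12 and 15 on HFC were at 1.13, 2.12, 0.83, 0.58 and 1.13, and both doses reached below the lowest of these. Differences were 0.11 for HFC minus LFC (SE 0.40, adjusted p = 0.978), −0.08 for HF5 (adjusted p = 0.993), −0.45 for HF20 (adjusted p = 0.496) and −0.21 for HF75 (SE 0.26, adjusted p = 0.814). With 1 time point left out at a time they ran from −0.02 to 0.48, from −0.49 to 0.34, from −0.73 to −0.22 and from −0.39 to −0.12, in the same order. Under other settings the HF75 difference reached 0.23 and kept its sign in 10 of 11.

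Fcgr3, a low-affinity activating Fc receptor, had a median of 1.42 on LFC, from 0.26 at day 14 to 3.78 at week 18, of 1.16 on HFC, from −0.34 at day 1 to 3.75 at week 6, and of 1.70 on HF5, from 0.93 at week 12 to 2.35 at week 15. On HF20 its levels over weeks 3 to 15 were 0.44, 1.56, 1.89, 1.15 and 1.58. On HF75 they were 0.03, 0.59, 0.73, 0.89 and 1.24, beside 1.03, 3.75, 1.90, 1.16 and 1.43 on HFC. HF75 was below HFC at each week, by most at week 6, and the ranges overlapped. The difference of HF75 from HFC was −1.16 (SE 0.46, 95% interval −2.26 to −0.06, adjusted p = 0.324, lower in 5 of 5 pairs) and −0.65 without week 6, and −0.23 from the weeks scanned on the same day as HFC. A second Fcgr3 probe gave a mean of −1.01, lower in 5 of 5, with r = 0.88 to the first. The other comparisons gave 0.07 for HFC minus LFC (SE 0.45, adjusted p = 0.988), −0.07 for HF5 (adjusted p = 0.992) and −0.53 for HF20 (adjusted p = 0.503). Without week 6 these were −0.20, 0.32 and −0.12.

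Tyrobp encodes DAP12, the adaptor through which many activating myeloid receptors signal. Its median was 2.11 on LFC, from 0.22 at day 14 to 4.51 at week 18, 2.51 on HFC, from −0.09 at day 1 to 4.06 at week 6, and 2.16 on HF5, from 1.26 at week 18 to 3.16 at week 3. On HF20 it stood at 2.09, 1.76, 2.44, 1.15 and 1.54 over weeks 3 to 15, beside 2.73, 4.06, 2.26, 2.06 and 2.59 on HFC. HF20 was lower at each week other than week 9, with overlapping ranges. HF75 held 2.17, 0.69, 2.72, 2.71 and 1.62, on both sides of HFC. HF20 minus HFC was −0.94 (SE 0.37, 95% interval −1.84 to −0.04, adjusted p = 0.384, lower in 4 of 5 pairs) and −0.60 without week 6. HF75 minus HFC was −0.76 (SE 0.59, adjusted p = 0.657, lower in 3 of 5), and −0.11 without week 6. HF5 minus HFC was −0.47 (SE 0.26, adjusted p = 0.955, lower in 5 of 6), and −0.27 without week 6. HFC minus LFC was 0.26 (SE 0.50, adjusted p = 0.961) with 7 of 10 measured pairs above 0, but −0.25 without the pairs of day 14 and week 3 and 0.04 without week 18 as well.

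The list of Fc receptors and their signalling partners held 18 genes, of which 0 passed in each diet comparison. For HF20 minus HFC, with the pair of week 12 kept, 18 of 18 were below 0. The median was −0.75, beside 0.08 over all genes, and 6 had an unadjusted p under 0.05, as did 12.5% of all genes. The lowest p there was that of Inpp5d, a phosphatase that restrains Fc receptor signals (−0.98, SE 0.24, adjusted p = 0.384). Medians were −0.03 for HFC minus LFC (8 of 18 above 0; Fgr, a Src-family kinase, −0.72, SE 0.50, adjusted p = 0.942), −0.08 for HF5 (12 of 18 below 0, Tyrobp with the lowest p) and −0.19 for HF75 (13 of 18 below 0, Fcgr3 with the lowest p). That of HFC minus LFC was −0.27 without day 14 and week 3 and −0.04 without week 18 as well, and that of HF75 was −0.51 without week 9.

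Itgam encodes CD11b, the alpha chain of the integrin that binds complement and adhesion ligands on macrophages and neutrophils. Its level had a median of −2.69 on LFC, from −4.56 at week 6 to 1.53 at week 18, of −2.27 on HFC, from −5.49 at day 1 to −0.71 at week 18, and of −1.78 on HF5, from −3.96 at week 9 to −0.43 at week 15. The highest LFC value was on the array with the highest neutrophil gene levels. Over weeks 3 to 15 it was −2.33, −2.83, −3.57, −4.38 and −2.47 on HF20 and −1.07, −1.90, −3.05, −1.92 and 0.02 on HF75, beside −2.72, −0.75, −3.55, −2.20 and −1.59 on HFC. HF75 was above HFC at each week other than week 6, and HF20 below at each week other than week 3. HF75 minus HFC was 0.58 (SE 0.45, adjusted p = 0.654, higher in 4 of 5 pairs), the single gene of the 10 above 0 in that comparison, but 0.08 with normexp correction, 1.01 without week 6, 0.31 without week 3, and −0.04 as the mean from a second Itgam probe (r = 0.73 to the first). HF20 minus HFC was −0.96 (SE 0.46, adjusted p = 0.388, lower in 4 of 5). HF5 minus HFC was 0.05 (adjusted p = 0.994), from −0.17 without week 15 to 0.47 without week 6. HFC minus LFC was −0.39 (SE 0.58, adjusted p = 0.953), −0.81 without week 6, −0.10 without day 1 and 0.34 without day 14, week 3 and week 18. Among 12 leukocyte integrins and their ligands, 0 passed in each of the 4 comparisons. For HF20 minus HFC, with the pair of week 12 kept, 12 of 12 were below 0 with a median of −0.97. Of the 12, 5 had an unadjusted p under 0.05, where 12.5% of all genes did. Itgax, the CD11c chain, had the lowest p (−1.28, SE 0.41, adjusted p = 0.384). Medians were −0.13 for HFC minus LFC (Icam2 1.00, SE 0.47, adjusted p = 0.942), −0.27 for HF5 (Itgax −0.72, SE 0.31, adjusted p = 0.952) and −0.01 for HF75 (Itgad −1.76, SE 0.39, adjusted p = 0.117), the last of which became −0.82 without week 9. The integrin median for HFC minus LFC was −0.17 without day 14, week 3 and week 18.

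Mertk, the receptor kinase with which macrophages recognise and engulf dying cells, had diet medians that lay 0.76 apart from lowest to highest. The median was −0.75 on LFC, from −2.56 at day 6 to 0.59 at week 0, −0.77 on HFC, from −1.56 at day 6 to 0.64 at week 6, and −0.05 on HF5, from −3.71 at week 3 to 0.51 at week 18. It stood at −0.36, 0.10, 0.04, −0.25 and −0.91 over weeks 3 to 15 on HF20 and at −0.81, 0.04, −2.53, −0.90 and 0.40 on HF75. The HF5 array of week 3 and the HF75 array of week 9 were the lowest of their diets, and only the former was past Dixon's limit for an outlier. Differences were 0.10 for HFC minus LFC (SE 0.28, adjusted p = 0.973), −0.25 for HF5 (SE 0.51, adjusted p = 0.969, and 0.27 without week 3), −0.02 for HF20 (SE 0.24, adjusted p = 0.975) and −0.50 for HF75 (SE 0.47, adjusted p = 0.727). That for HFC minus LFC was −0.02 without week 12, and that for HF20 0.11 without week 6. The HF75 difference was −0.92 without week 15, −0.09 without its low array of week 9 and 0.11 from the weeks scanned on the same day as HFC. Among 17 efferocytosis genes, 15 were above 0 for HFC minus LFC with a median of 0.48, beside −0.03 over all genes, and the lowest p was that of Cd36, a scavenger receptor (0.89, SE 0.41, adjusted p = 0.942). Without day 14, week 3 and week 18, 11 of 17 were above 0 with a median of 0.09. The medians were −0.25 for HF5 (11 of 17 below 0; Timd4, a phosphatidylserine receptor, −1.10, SE 0.33, adjusted p = 0.870), −0.27 for HF20 (15 of 17 below 0; Axl, a kinase related to Mertk, −1.09, SE 0.28, adjusted p = 0.384) and −0.53 for HF75 (13 of 17 below 0, and −0.25 without week 9). Lrp1, an endocytic receptor, had the lowest p of the list on HF75 (−1.45, SE 0.25, adjusted p = 0.0622). None of the 17 passed in these comparisons.

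Cd14 encodes the surface protein that hands lipopolysaccharide to the Toll-like receptor complex. Its diet medians lay 2.96 apart from lowest to highest, the widest of the 10 genes. The median was 1.86 on LFC, from −0.02 at week 9 to 4.91 at week 6, 2.69 on HFC, from −0.38 at day 1 to 4.86 at week 6, and 3.68 on HF5, from 0.62 at week 9 to 4.69 at week 15. LFC and HFC peaked at the same week and were low together at week 9. Over weeks 3 to 15 Cd14 stood at 1.78, 2.57, 0.53, 0.44 and 0.72 on HF20 and at 1.02, 3.10, 1.54, 1.68 and 3.23 on HF75, beside 1.73, 4.86, 0.79, 3.09 and 3.07 on HFC. HF20 was below HFC at each week other than week 3, by over 2 at weeks 6, 12 and 15, and the ranges overlapped. HF20 minus HFC was −1.50 (SE 0.50, 95% interval −2.70 to −0.30, adjusted p = 0.384, lower in 4 of 5 pairs), and −1.31 without week 6. HFC minus LFC was 0.57 (SE 0.40, 95% interval −0.28 to 1.42, adjusted p = 0.942, above 0 in 6 of 10 measured pairs), and 0.27 without day 14, week 3 and week 18. HF5 minus HFC was 0.61 (SE 0.50, adjusted p = 0.955, 3 of 6 above 0), from 0.18 without week 3 to 0.96 without week 6. HF75 minus HFC was −0.59 (SE 0.42, adjusted p = 0.611, lower in 3 of 5), from −0.93 without week 9 to −0.30 without week 6.

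Cd14 moved with markers of handling, of adipocytes and of epithelial cells. Across the 36 arrays other than LFC day 14 and week 3, r was 0.77 with the mean of 13 genes that respond to tissue digestion and 0.75 without the 2 arrays farthest from the median of that mean. It was −0.71 with the mean of 12 adipocyte genes, and −0.83 without the 2 farthest arrays. With the mean of the epithelial genes it was 0.69, and 0.64 without the 2 farthest arrays. Cd14 was not alone in following the digestion list. Csf1 had r = 0.52 with it (Spearman rho 0.80), Itgam 0.50 (0.61) and Mertk 0.32 (0.57). The arrays share diets, time points and slides, and these values are descriptions. On HF20 the mean of the digestion list was 4.73, 4.10, 0.35, −0.72 and 1.87 over weeks 3 to 15, with Junb most often its brightest gene, and on HFC it was 4.48, 5.25, 2.90, 5.00 and 4.83. The adipocyte mean was 1.86, 1.03, 5.08, 5.59 and 5.23 on HF20 and 1.52, 0.29, 4.83, 2.42 and 0.82 on HFC. HF20 was thus low in digestion genes and high in adipocyte genes at weeks 9, 12 and 15, of which week 9 was shared with HFC for adipocytes. In the fit, 13 of 13 digestion genes were below 0 for HF20 minus HFC with a median of −2.26. Of them 11 had an unadjusted p under 0.05, beside 12.5% of all genes. All 12 of 12 adipocyte genes were above 0 with a median of 1.69. The part of these cells and of handling in the Cd14 difference was not tested.

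Of 14 genes for lipopolysaccharide recognition and its early response, 0 passed in the 4 comparisons. For HF20 minus HFC, 12 of 14 were below 0 with a median of −0.45. Of the 14, 6 had an unadjusted p under 0.05, beside 12.5% of all genes. The lowest p was that of Tnfaip3, an inhibitor of NF-κB (−2.56, SE 0.81, adjusted p = 0.384), which for HFC minus LFC was 1.49 (SE 0.59, adjusted p = 0.942) and again the lowest p of the list. Medians were 0.09 for HFC minus LFC (9 of 14 above 0, and 0.11 without day 14, week 3 and week 18), 0.07 for HF5 (10 of 14 above 0; Ly96, the MD-2 partner of the receptor, −0.39, SE 0.18, adjusted p = 0.955) and −0.40 for HF75 (9 of 14 below 0; Lbp, which carries lipopolysaccharide to Cd14, −1.10, SE 0.36, adjusted p = 0.250).

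Cd68 encodes a glycoprotein of macrophage lysosomes and endosomes. Its median was 0.04 on LFC, from −2.09 at day 14 to 0.80 at week 0, 0.24 on HFC, from −3.11 at day 1 to 2.22 at week 6, and 0.07 on HF5, from −0.92 at week 18 to 1.49 at week 6. Over weeks 3 to 15 it stood at −0.56, 0.24, 0.66, −0.16 and −0.73 on HF20 and at −0.63, −1.35, −0.09, −0.36 and −0.39 on HF75, beside −0.12, 2.22, 0.68, 0.24 and 0.77 on HFC. Both doses were below HFC at each of these weeks, by most at week 6, and HF75 reached into the HFC range with its week 9 array alone. HF75 minus HFC was −1.32 (SE 0.49, 95% interval −2.48 to −0.16, adjusted p = 0.282, lower in 5 of 5 pairs) and −0.76 without week 6. HF20 minus HFC was −0.87 (SE 0.35, 95% interval −1.71 to −0.02, adjusted p = 0.384, lower in 5 of 5) and −0.59 without week 6. HF5 minus HFC was −0.40 (SE 0.20, adjusted p = 0.955, lower in 5 of 6), and HFC minus LFC was 0.19 (SE 0.43, adjusted p = 0.969, above 0 in 6 of 10 measured pairs), with −0.07 without week 6 and 0.50 without day 1.

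Lyz2 encodes the lysozyme of macrophages and neutrophils. Its median was 0.43 on LFC, from −1.41 at week 6 to 2.90 at week 18, 0.25 on HFC, from −2.52 at day 1 to 1.47 at week 6, and −0.20 on HF5, from −0.67 at week 18 to 0.59 at week 6. HF20 held 0.40, 0.22, 0.54, −0.40 and −0.61 over weeks 3 to 15 and HF75 held 0.35, −3.02, 0.45, −0.56 and −1.09, beside 0.51, 1.47, 1.01, −0.43 and −0.01 on HFC. The HF75 array of week 6 was far below its others, while the HFC array of that week was the highest of its diet. The difference of HF75 from HFC came to −1.28 (SE 0.66, adjusted p = 0.461, lower in 5 of 5 pairs), but −0.48 without week 6. HF20 minus HFC was −0.48 (adjusted p = 0.402, lower in 4 of 5, and −0.29 without week 6) and HF5 minus HFC −0.43 (SE 0.23, adjusted p = 0.955, lower in 4 of 6, and −0.29 without week 3). Under other settings HF20 reached 0.21, with its sign kept in 10 of 11, and HF5 0.01, with its sign kept in 11 of 12. HFC minus LFC was −0.69 (SE 0.70, 95% interval −2.21 to 0.83, adjusted p = 0.942), with 6 of 8 measured pairs above 0. The fit raised the dim HFC value of day 6 to that array's floor of −5.38, and it lacked the LFC value of day 14. Without the pair of day 6 the difference was −0.18, without week 6 it was −1.09, without day 14, week 3 and week 18 it was −0.49, and with normexp correction −0.15.

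The list of phagocyte lysosome genes held 16. None passed in the 4 comparisons, and 14 of 16 were below 0 for both HF5 (median −0.25, Cd68 with the lowest p) and HF75 (median −0.63, 5 at an unadjusted p under 0.05, beside 14.3% of all genes). Lipa, the lysosomal acid lipase, had the lowest p on HF75 (−0.91, SE 0.25, adjusted p = 0.191) and for HFC minus LFC (0.74, SE 0.26, adjusted p = 0.942), where 10 of 16 were above 0 with a median of 0.22 (0.08 without day 14, week 3 and week 18). For HF20 the median was −0.21, with 12 of 16 below 0 and Gpnmb, a glycoprotein of lipid-laden macrophages, at the lowest p (−1.11, SE 0.37, adjusted p = 0.384).

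**Figure D2:**
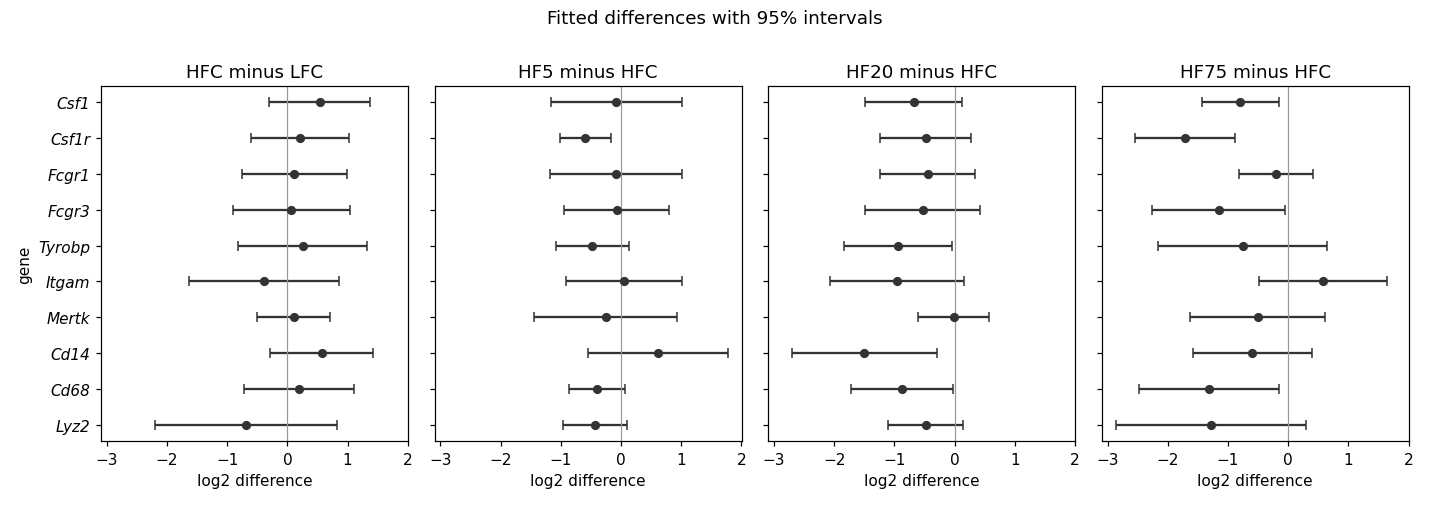
Fitted log2 difference (x axis) of each gene (y axis) in the 4 diet comparisons, with 95% intervals. The Csf1r interval for HF75 minus HFC runs from −2.54 to −0.88, and for HFC minus LFC each interval spans 0.

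Side by side, the 10 genes had a median of 0.15 for HFC minus LFC, with 8 of 10 above 0, beside −0.03 over all genes tested. The HFC minus LFC median was 0.34 under normexp (all-gene median 0.13), 0.30 under the median shift (0.10), 0.26 with quantile normalization (−0.02) and 0.25 with no raising of dim intensities (0.03), each with 8 of 10 above 0. Against HFC the median was −0.17 on HF5 with 2 of 10 above 0, −0.60 on HF20 with 0 of 10 above 0 and −0.78 on HF75 with 1 of 10 above 0, beside all-gene medians of −0.00, 0.08 and 0.01. With quantile normalization 1 of 10 was above 0 on HF20, and with normexp 3 of 10 on HF5. In 1 fit over all 38 arrays, the 5 diets and the time points were terms. Its medians were −0.01 on HF5 (5 of 10 above 0), −0.34 on HF20 (2 of 10) and −0.44 on HF75 (1 of 10). The all-gene medians in it were −0.10, −0.04 and −0.11. The 20 other macrophage markers gave medians of 0.18 for HFC minus LFC (11 above 0, and 0.17 without day 14, week 3 and week 18; Mrc1, the mannose receptor, 0.65, SE 0.30, adjusted p = 0.942), −0.51 on HF5 (19 below 0; Emr1, the F4/80 antigen, −0.44, SE 0.16, adjusted p = 0.904), −0.61 on HF20 (18 below 0; Cd83 −2.71, SE 0.56, adjusted p = 0.384) and −0.76 on HF75 (17 below 0). C1qb, a chain of complement C1q, had the lowest p of them on HF75 (−1.52, SE 0.35, adjusted p = 0.128), and 0 of 20 passed in each comparison.

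The difference between HFC and LFC varied between time points. At day 1, 0 of 10 genes were above 0, with a median of −2.35 beside 0.39 over all genes measured on that pair, and at day 6, 2 of 9 were (median −1.05 beside 0.70). At day 10, 9 of 10 were above 0 (0.63 beside −0.08), and at day 14, 6 of 9 (1.09 beside −0.11). Week 0 stood near 0, with 5 of 10 above it and a median of −0.03. The median was then 2.08 at week 6 (9 of 10 above 0), 0.47 at week 9 (10 of 10), 0.57 at week 12 (8 of 10) and 0.09 at week 15 (6 of 10). At week 18 it was −0.56 with 4 of 10 above 0, against the LFC array rich in neutrophil and erythroid genes. These are differences of single arrays. Day 14 and week 0 were the same day, so their medians of 1.09 and −0.03 come from 2 pairs of that day, the first with an LFC array that stood apart. At week 3 no order is given because the LFC array measured none of the genes. Leaving out week 6 moved the fitted median from 0.15 to −0.00 with 5 of 10 above 0, leaving out day 1 moved it to 0.45, and the fit held the LFC array of week 3 at its floor. The fitted median was 0.28 without day 6, 0.14 without week 9 and 0.12 without week 12. Without day 14 and week 3 it was 0.04, and without week 18 as well 0.13, with 7 of 10 above 0 in both. In the latter fit Csf1r was at 0.13, Fcgr1 at −0.12, Fcgr3 at 0.20, Mertk at 0.20 and Cd68 at 0.13.

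The HFC array of day 1 was low in each of the 10 genes, with a mean level of −1.56 beside 0.80 on the LFC array of that day. Marker lists differed between the same 2 arrays. The adipocyte mean was 4.84 on HFC and 2.34 on LFC, and the digestion mean was 0.22 and 4.53. The T cell mean was −4.74 and 0.95, and the mean over 6 lymph node genes −5.28 and 1.87. Their part in the day 1 differences was not tested, and the 2 arrays were on different slides and scanned on different days. At week 6, where the 10 genes had a mean of 2.49 on HFC, the adipocyte mean was 0.29, the lowest of the HFC arrays, and the digestion mean 5.25, the highest of them.

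The same week held the lowest pair median of the 10 genes at each dose. At week 6, 0 of 10 genes were above 0 on each dose, with medians of −1.05 on HF5, −1.73 on HF20 and −2.35 on HF75, beside −0.04, −0.08 and −0.07 over all genes. At week 3 the medians were 0.00, −0.27 and −0.49, at week 9 −0.21, −0.01 and −0.67, at week 12 −0.31, −0.49 and −0.43 and at week 15 0.79, −0.74 and −0.17. HF5 was 0.13 at week 18. Over these weeks the all-gene medians lay between −0.06 and 0.30, with the highest on HF20 at week 9. All 3 doses share the HFC array of each week. Without week 6 the fitted medians were −0.09 on HF5, −0.42 on HF20 and −0.48 on HF75, and that of HF5 was −0.47 without week 15, −0.36 without week 18 and −0.05 with slide as a random block (4 of 10 above 0). Leaving out week 9 gave −0.23 on HF5, −0.81 on HF20 and −0.996 on HF75, and leaving out week 12 gave −0.66 on HF20. On HF5, the 3 pairs on a shared slide (weeks 12, 15 and 18) gave a median of 0.19 with 7 of 10 above 0, and no pair of HF20 or HF75 shared a slide with HFC. From pairs scanned on the same day, chosen after seeing the data, the median was −0.73 on HF20 (4 pairs) and −0.42 on HF75 (2 pairs, 3 of 10 above 0).

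Markers of other cells also differed along these comparisons, and their part in the differences of the 10 genes was not tested. For HFC minus LFC, 10 of 10 fibroblast genes were above 0 (median 1.37), as were 8 of 8 endothelial genes (1.08) and 13 of 13 digestion genes (1.23), while 9 of 10 neutrophil genes (−0.84), 7 of 7 B cell genes (−0.56) and 5 of 5 epithelial genes (−1.30) were below 0. Other medians were 0.36 for adipocyte, −0.05 for T cell, −0.44 for lymph node, −0.19 for dendritic cell, 0.66 for mast cell, 0.19 for NK cell, 0.19 for erythroid and 0.34 for skeletal muscle genes. Without day 14, week 3 and week 18, an alternative chosen after seeing the data, the fibroblast median was 0.15 with 7 of 10 above 0, the endothelial 0.30 with 8 of 8, the digestion 0.74 with 13 of 13 and the adipocyte −0.45 with 1 of 12. It was −0.28 for neutrophil, −0.55 for B cell, −0.97 for epithelial, −0.52 for T cell, −0.84 for lymph node, −0.05 for dendritic cell, 0.58 for mast cell, 0.15 for NK cell, 0.30 for erythroid and −0.85 for skeletal muscle genes. With day 14 and week 3 alone left out, the fibroblast and endothelial medians were 1.28 and 1.08. Without day 1 the T cell, B cell and lymph node medians were 0.67, 0.08 and 0.36, and without week 12 the digestion median was 0.91 and the muscle median −0.55. No gene of these lists passed in the fit with all pairs.

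For HF5 minus HFC, 10 of 10 fibroblast genes (−0.59), 7 of 7 NK cell genes (−1.05), 9 of 9 dendritic cell genes (−0.35), 12 of 13 digestion genes (−0.41), 8 of 9 T cell genes (−0.57), 9 of 12 adipocyte genes (−0.33), 4 of 6 lymph node genes (−0.61), 8 of 8 endothelial genes (−0.34) and 5 of 5 erythroid genes (−0.91) were below 0 and 6 of 6 epithelial genes above (2.41). Without week 3, whose HF5 array stood apart, the fibroblast median was −0.11 with 6 of 10 below 0 and the endothelial median 0.31 with 2 of 8 below 0, while the NK cell median was −1.02, the erythroid −1.04, the T cell −0.97, the dendritic cell −0.35 and the digestion −0.36. Among the pathway lists, efferocytosis turned to 0.02 and lysosome genes to −0.11. Without week 15 the T cell and lymph node medians were −0.03 and −0.07. For HF20 minus HFC, 10 of 10 neutrophil genes (−0.82) and 9 of 10 fibroblast genes (−0.63, 5 at an unadjusted p under 0.05, beside 12.5% of all genes) were below 0. So were 7 of 7 NK cell genes (−1.40), 8 of 8 endothelial genes (−0.60) and 5 of 5 erythroid genes (−0.74), and the T cell, B cell and lymph node medians were −1.80, −1.18 and −1.56. Without week 15 the neutrophil median was −0.37 with 7 of 10 below 0 and those of B cell and lymph node genes −0.27 and −0.56, without week 12 the endothelial median was −0.25 and the digestion median −1.50, and without week 6 the erythroid median was −0.21. For HF75 minus HFC, 8 of 10 fibroblast genes were below 0 with a median of −0.87, and 2 of them passed, Dpt and Fbn1, where 0.982% of all genes did. No gene, and so neither of these, was called without week 3, week 6 or week 15, without the time point block or in the fit over all 38 arrays. Fbn1, which encodes the matrix protein fibrillin, fell by 2.04 (SE 0.31, adjusted p = 0.0422). The fibroblast mean on HF75 was 2.97, 3.45, 3.65, 3.61 and 3.53 over weeks 3 to 15, beside 4.21, 4.62, 3.97, 4.29 and 4.56 on HFC, with Dcn most often the brightest gene. Neutrophil genes had a median of 0.94 on HF75, muscle genes 1.40, epithelial genes 1.88, mast cell genes −1.27, erythroid genes −1.45 (5 of 5 below 0), NK cell genes −0.80, B cell genes 0.39 (7 of 7 above 0), T cell genes 0.07, lymph node genes 0.53, adipocyte genes 0.02 and digestion genes 0.14. Several of these turned without week 9, where the title of the HF75 array differed from that of HFC. The median was then −0.97 for B cell genes (0 of 7 above 0), −1.22 for T cell, −0.39 for lymph node, −0.50 for muscle, −0.06 for digestion, 0.10 for neutrophil and 0.70 for adipocyte genes, while fibroblast genes stood at −0.95 and erythroid genes at −2.26.

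Late arrays (weeks 3 to 18) were compared with early ones (days 1 to 14 and week 0) over LFC and HFC with diet in the fit. It took the arrays as independent. LFC and HFC arrays share time points, and their deviations correlated over 0.1 in 8 of 11 pairs. The p-values and SEs of this fit do not allow for that pairing. Of 21609 genes 1 was called, or 0.00463%, and it was none of the 10, of which 0 had an unadjusted p under 0.05, as 966 of all genes did. The called gene, Igh, named after its values were seen, was 3.69 higher late (adjusted p = 0.0390). It was not called without day 6, 10 or 14 or week 6, 9, 15 or 18, nor with slide as a random block, when the count was 0. Without week 12 the count was 2, and without week 3 the 1 call was of a gene lower in late arrays. Of the 10 genes 9 were above 0, with a median of 0.44 beside 0.01, which became 0.21 without week 6, 0.72 without week 0, 0.34 without day 6 and 0.47 without week 9. Itgam was largest at 1.37 (SE 0.70, 95% interval −0.08 to 2.82, adjusted p = 1), but 0.26 with normexp correction, which moved the all-gene median to −0.22. Lyz2 followed at 0.79, Cd68 at 0.68, Cd14 at 0.52, Csf1 at 0.50, Mertk at 0.37, Fcgr3 at 0.35, Tyrobp at 0.25, Csf1r at 0.18 and Fcgr1 at −0.08. Single time points moved these. Without day 6, Lyz2 was at 0.19, Mertk at 0.07 and Itgam at 0.87. Without day 1, Cd68 was at 0.37, Fcgr3 at 0.17, Tyrobp at 0.03 and Fcgr1 at −0.28. Without day 14, Csf1 was at 0.24 and Csf1r at −0.09, and without week 6 Cd14 was at −0.01. Early and late arrays were on different slides, so slide and period cannot be told apart.

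Within HFC alone 10 of 10 genes were above 0 for late minus early, with a median of 0.82 beside −0.25 over all genes, and Lyz2 at 1.68, Cd68 at 1.27 and Csf1 at 1.09. Within LFC alone 5 of 10 were above 0, with a median of −0.01 beside 0.26, and Fcgr1 at −0.75. The difference between these diets in the change was fitted as an interaction, where 0 of 20830 genes were called by limma (0%), with 1028 of all genes and 0 of the 10 at an unadjusted p under 0.05. All 10 genes were above 0 in it, with a median of 0.94 beside −0.49 over all genes. It was 9 of 10 with quantile normalization, with the mean over all probes, without day 6 or without week 6, and 8 of 10 from pairs on a shared slide. Lyz2 was at 2.09 (SE 1.35), Fcgr1 at 1.33 (SE 0.75), Cd68 at 1.18 (SE 0.82) and Csf1 at 1.16 (SE 0.75), each with an adjusted p of 0.768. Lyz2 was at 0.99 without day 6, while without day 1 Fcgr1 was at 0.60, Cd68 at 0.57, Csf1 at 0.73 and the median at 0.47, with 9 of 10 above 0. Without day 14 and week 3 it was 1.18 beside −0.11, and without week 18 as well 1.42 beside −0.18. Under normexp correction the median of the 10 was 0.85, but the all-gene median turned to 0.51.

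Of the lists, 18 of 18 Fc receptor and signalling genes were above 0 in the interaction (median 1.04; Syk, the kinase recruited by activated receptors, 3.38, SE 1.03, adjusted p = 0.768), as were 18 of 20 other macrophage markers (1.00; Cd83 3.15), 14 of 17 efferocytosis genes (0.79; Dock2 2.21), 9 of 12 integrin genes (1.37; Itgb7 2.99) and 12 of 16 lysosome genes (0.30; Gpnmb 1.84). The growth factor axis had a median of 0.09 (Irf8 1.83) and lipopolysaccharide recognition 0.17 (Tlr2 1.66). Lymphocyte genes were further from 0, with 9 of 9 T cell genes above it (median 3.87, 7 at an unadjusted p under 0.05, beside 4.94% of all genes), 7 of 7 B cell genes (3.49) and 6 of 6 lymph node genes (3.72). Also above 0 were 7 of 7 NK cell genes (2.67), 10 of 10 fibroblast genes (1.95), 13 of 13 digestion genes (1.70) and 8 of 8 endothelial genes (0.58). Without day 14, week 3 and week 18 the medians were 5.60 for T cell, 3.21 for NK cell, 1.90 for digestion, 0.79 for fibroblast and −0.21 for endothelial genes, and 1.60 for Fc receptor, 1.51 for other macrophage, 0.65 for efferocytosis and 2.04 for integrin genes. Without day 1 they were 2.65 for T cell, 1.77 for B cell, 2.36 for lymph node, 1.66 for NK cell, 0.28 for digestion and 1.96 for fibroblast genes, and 0.22 for Fc receptor (12 of 18 above 0), 0.61 for other macrophage, 0.63 for efferocytosis and 0.45 for integrin genes. The part of the other cells was not tested. For late minus early the medians were 0.08 for the growth factor axis (Csf2ra 1.41, SE 0.41), 0.25 for Fc receptors (Trem2 1.01), 0.10 for efferocytosis (Anxa1 1.00), 0.32 for lipopolysaccharide recognition (Tlr4 0.88, SE 0.32, adjusted p = 0.931), 0.09 for lysosome, 0.22 for integrins and 0.25 for other macrophage markers (Mrc1 0.89), while 11 of 12 adipocyte genes were below 0 (−1.58). So were 8 of 8 endothelial (−1.10), 7 of 7 B cell (−0.85), 7 of 7 NK cell (−0.49), 6 of 6 erythroid (−0.87), 7 of 7 skeletal muscle (−0.95), 5 of 5 mast cell (−0.66), 8 of 10 fibroblast (−0.63), 8 of 9 T cell (−0.32) and 5 of 6 lymph node genes (−1.84). Without day 14, week 3 and week 18 the medians of Fc receptors and integrins were −0.26 and −0.36, and those of adipocyte, endothelial and fibroblast genes −0.87, −0.64 and 0.05. None of the genes of these lists passed in either fit.

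The 10 genes tended to vary together over the 36 arrays other than LFC day 14 and week 3. Of their 45 pairs, 42 had r above 0, with a median of 0.39, beside a median of 0.00 over all pairs of 15596 genes. The strongest were Cd68 with Csf1r (0.76), Cd68 with Fcgr3 (0.74), Fcgr3 with Tyrobp (0.74), Mertk with Csf1 (0.74) and Cd68 with Tyrobp (0.71). The lowest was Csf1r with Itgam, at −0.17. Cd68 had the highest median r with the other 9, at 0.62, and Csf1 the lowest, at 0.23. The mean of the 10, each centred, moved with markers of other cells. It had r = −0.60 with the adipocyte list (−0.59 without the 2 arrays farthest from the median of that list), 0.46 with the digestion list (0.41), 0.40 with the neutrophil list (0.36) and 0.04 with the fibroblast list, where it was 0.74 without the 2 farthest arrays. Their part in the shared variation was not tested. Itgam followed the neutrophil list with r = 0.73 (0.64 without the 2 farthest arrays) and the adipocyte list with −0.79 (−0.70), while Csf1 followed the fibroblast list with 0.69 (0.68) and Tyrobp the NK cell list with 0.63 (0.62). Neither of the latter was particular to 1 list. Csf1 had r = 0.64 with the endothelial list (0.35). Tyrobp had 0.57 with the neutrophil list (0.42), 0.52 with the T cell list (0.49) and 0.51 with the dendritic cell list (0.44).

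Among other genes, those most like the mean of the 10 were Slc11a1 (r = 0.85, rho = 0.82), Tgfbi (0.84, 0.75), Ms4a6d (0.84, 0.82), Emilin2 (0.79, 0.74) and Tspan5 (0.78, 0.73). C1qb was the most like both Csf1r (r = 0.93, rho = 0.90) and Cd68 (0.85, 0.86), Tlr2 was the most like Cd14 (0.91, 0.92) and Igsf6 the most like Tyrobp (0.84, 0.72). For Itgam it was Ptprj (0.86, 0.87), for Mertk Myo9a (0.89, 0.84), for Fcgr1 Oasl2 (0.76, 0.68), for Fcgr3 Tbxas1 (0.79, 0.76) and for Csf1 Dlgap4 (0.91, 0.89). Lyz2 was most like Lyz1 (0.93, 0.92), a near-identical neighbouring gene, and the probe of either may read both. With all 38 arrays these r ran from 0.63 for Fcgr3 to 0.92 for Csf1r.

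Because the 10 genes tended to vary together, their promoters were searched for a purine-rich sequence of the kind bound by PU.1, the ETS-family transcription factor of myeloid cells. The letters searched were GAGGAAG and its reverse complement CTTCCTC, in the 250 bases before the start of each gene in RefSeq (build GRCm38.p6). They occurred in 3486 of 32851 promoters, or 10.6%, and, as a gene can have several, in at least 1 promoter of 3244 of 27025 genes, or 12%. Of the 10 genes 7 had an entry (Cd68, Itgam, Mertk, Fcgr1, Fcgr3, Lyz2 and Csf1), and 3 of those held the letters. Csf1r, Tyrobp and Cd14 were not matched. The match is a description of sequence, and binding was not measured. The stretches around the 3 matches, which let their settings be compared, are given 5′ to 3′ on the strand of the gene with the matched letters in capitals. That of Itgam lies at chr7:128062526-128062592 on the + strand and ends 47 bases before the start, that of Fcgr1 at chr3:96293989-96294055 on the − strand, ending 19 bases before it, and that of Fcgr3 at chr1:171059404-171059440 on the − strand, where the letters end at the start itself. Fcgr1 and Fcgr3 carry the reverse complement.
Itgam: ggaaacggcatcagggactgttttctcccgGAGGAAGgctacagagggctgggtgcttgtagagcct
Fcgr1: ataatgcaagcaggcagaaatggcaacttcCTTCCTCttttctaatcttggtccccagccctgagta
Fcgr3: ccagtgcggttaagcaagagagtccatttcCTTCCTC
Of these 3, Fcgr3 was lower on HF75 than on HFC in 5 of 5 pairs, Fcgr1 in 4 of 5 and Itgam in 1 of 5, and none passed the test. Of the genes searched without a match, Cd68, Lyz2 and Csf1 were lower in 5 of 5 pairs and Mertk in 3 of 5.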

How the data were processed

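Per the file headers, the deposited intensities came from Feature Extraction 10.5.1.1, which corrected background on each array separately and left arrays unscaled against each other. A deposited table of the authors' fold changes gave gene symbols, and its 40 value columns were not used. Outlier spots were dropped, duplicate spots averaged and each array's 75th percentile subtracted from its log2 intensities. Dim values were set to a floor, the lowest level well above background on that array. A gene was its probe with the highest mean level, tested if either group had it well above background on 50% or more of its arrays. Differences between diets and the interaction were fitted in limma 3.58.1 (R 4.3.3, lmFit and eBayes) with the time point as a block. Late minus early was fitted in limma with diet and without that block. Benjamini-Hochberg adjustment was over all genes tested, at 0.05. Descriptions used Python 3.11.15, NumPy 2.4.6, pandas 2.3.3 and SciPy 1.17.1, figures matplotlib 3.10.9. The fit was also run on simulated data, with independent noise set smaller than the spread of the arrays. That run does not show how well the fit finds differences in these arrays. The time point pairs the arrays by design. Deviations of paired arrays correlated over 0.1 in 8 of 11 pairs of HFC and LFC, 6 of 6 of HF5, 3 of 5 of HF20 and 3 of 5 of HF75. Each diet had 1 array per labelled time point, and day 14 and week 0 were kept apart, so p-values measure the spread between arrays, which may be technical in part. The 10 genes and the lists (growth factor axis, Fc receptor and ITAM signalling, efferocytosis, LPS recognition, phagocyte lysosome, leukocyte integrins, other macrophage markers and the cell type and digestion lists) were chosen with earlier results of these data known. From each pathway list the text names genes past the threshold and, where none passed, the gene with the lowest p, though 2 such genes are not reported here. Likeness is Pearson's r among genes well above background on at least 90% of arrays. The 2 unassigned arrays, HF20 and HF75 of week 18, have conflicting labels and were left out. Alternatives covered the background correction, normalization, probe filter, probe choice, block, slide, scan day and left-out arrays. The methods' t-test was also run for HFC against LFC, over all arrays of each diet and unpaired. The methods describe 3 values a side at a time point, which could not be repeated with 1 array per label.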

Additional observations from a re-analysis of the deposited data

Results flagged for a closer look

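Mertk on HF5 had 1 array far from the others. Its level at week 3 was −3.71, while the other 5 HF5 arrays lay between −0.50 and 0.51, so the gap to the nearest array was 0.761 of the whole range. Of 30 groups tested (10 genes in HF5, HF20 and HF75), this was the 1 group past Dixon's limit, and chance passes about 1 in 20 groups. Without week 3 the difference of HF5 from HFC was 0.27 for Mertk in place of −0.25. The same array had the lowest endothelial (−2.10), fibroblast (1.90), efferocytosis (−0.02) and lysosome (1.86) means of the HF5 arrays. Its T cell (1.72), B cell (0.73), NK cell (−1.97) and dendritic cell (−2.05) means were the highest of them. The part of these markers in the Mertk level was not tested.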

How the results depend on the processing

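Of 1270 values of the 10 genes under other settings, 1221 lay within 1 SE of the value reported and 48 moved further. The other 1, Csf1r on HF75 with no filter on dim probes, passed the threshold where it had not. None of the 10 was called in the main fits, so there was no call to reverse. Some signs turned, as for Fcgr3 in HFC minus LFC, which kept its sign in 7 of 11 fits with a time point left out. Counts of called genes moved in 3 comparisons, and the cause was not tested. The 203 genes of HF75 against HFC became 6548 with no filter on dim probes, 112 among genes well above background on every array, 99 without week 9, and 0 from pairs scanned on the same day (chosen after seeing the data). Leaving out each week in turn gave 0 to 99, with 2238 to 3302 genes at an unadjusted p under 0.05 in limma.

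With no replicate block, so that arrays were not paired by time point, HF75 against HFC called 0 genes (2577 at an unadjusted p under 0.05). It also called 0 in 1 fit over all 38 arrays (1219). The block changed no other count of calls.

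The 1 gene called late against early became 0 under normexp correction, quantile normalization, a median shift, no filter on dim probes, the mean over all probes, slide as a random block, LFC or HFC arrays alone, and without week 9, without day 6, without day 14 and week 3, or without week 18 as well (chosen after seeing the data). It was 2 among genes well above background on every array and 0 to 2 when each time point was left out in turn. These fits had between 282 and 2369 genes at an unadjusted p under 0.05. The interaction went from 0 to 47 calls under normexp (5748 at an unadjusted p under 0.05), with an all-gene median of 0.51 in place of −0.49. HFC against LFC, HF5 and HF20 had 0 calls under each setting run, and the methods' t-test for HFC against LFC called 0, with 314 at an unadjusted p under 0.05.

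Among the scalings, all-gene medians moved by over 0.1 under normexp, to 0.13 for HFC minus LFC, −0.19 for HF5, −0.19 for HF20, −0.11 for HF75 and −0.22 for late minus early, and under the median shift to 0.10 for HFC minus LFC and −0.34 for the interaction. For late minus early they were 0.23 with quantile normalization and 0.20 with the median shift. With no filter on dim probes they were −0.29 for HFC minus LFC and 0.21 for HF75, and from pairs on a shared slide −0.32 for HFC minus LFC and −1.02 for the interaction. Not run were pairs on a shared slide and slide as a random block for HF20 and HF75, where no slide was shared with HFC. Among genes well above background on every LFC and HFC array, none of the 10 was left to test.

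Each diet had 1 array per labelled time point, and of the days only day 14 had 2 pairs of LFC and HFC, labelled day 14 and week 0. Signal over background fell to 1.53 on the LFC array of week 3, where none of the 10 genes could be measured. At day 6 the probe used for Itgam was not well above background on LFC and HFC, nor that of Lyz2 on HFC. Slide and period cannot be told apart, nor scan day and the 75 µg dose at weeks 3, 6 and 9. A p that missed the threshold does not show that levels were the same.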
